A study of Mus musculus with 8 samples.

Results

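The cullins and the numbered genes of their main receptor families were followed in mouse kidney tubular cells depleted of smgGDS. Members were every gene of the deposited table whose symbol starts with Cul, Dcaf, Fbxo, Fbxw, Fbxl or Klhl followed by a digit. The table of 21879 genes held 136 of them, and 92 had enough reads to be tested, out of 11576 tested genes in all. The 44 others comprised 20 genes with no count in any library and 24 whose highest count in a library was 20 or less. Cullins matched by the rule were Cul1, Cul2, Cul3, Cul4a, Cul4b, Cul5, Cul7 and Cul9, and all 8 were tested.

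A cullin is an elongated scaffold that holds a RING protein, which recruits a ubiquitin-charged enzyme, at one end and a substrate receptor at the other. Each cullin takes its own class of receptor. CUL1 carries F-box proteins through the adaptor SKP1, and these are named Fbxw, Fbxl or Fbxo for WD40 repeats, leucine-rich repeats or other domains. CUL3 binds BTB-Kelch proteins of the Klhl family directly, and CUL4A and CUL4B bind the Dcaf proteins through DDB1. The attachment of NEDD8 to the cullin switches the ligase on, and the COP9 signalosome takes NEDD8 off. Through these receptors the ligases set the lifetime of cell cycle regulators, signalling proteins and stress factors, in kidney tubule cells as elsewhere.

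The knockdown group was 4 libraries of TCMK-1, an immortal line from mouse renal tubular epithelium, carrying an shRNA against smgGDS and given 20 µM cisplatin. These were set against 4 libraries of TCMK-1 cells with a control shRNA and the same 20 µM cisplatin, a chemotherapy drug whose platinum atom binds and links DNA bases. smgGDS is the product of Rap1gds1 and a chaperone and exchange factor of small GTPases. The drug was thus common to both groups, which differ in the shRNA. Without untreated libraries, an effect of the knockdown itself and a changed response to cisplatin cannot be told apart. The labels name neither the promoter of the shRNA nor whether a group is 1 clone or a pool, and they do not say that the libraries came from separate cultures. What the p-values weigh is then only the variation among these libraries, which may be technical.

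Total expected counts lay between 12746051 and 14280962 in knockdown libraries and between 11560977 and 16059158 in control libraries. Rap1gds1 had 38, 30, 33 and 35 counts in the knockdown, against 276, 258, 241 and 181 in controls. Knockdown replicate 4 lay at 20.9 on the first principal component, where the other knockdown libraries had 8.86 to 9.58 and controls -16.5 to -8.86. Epithelial markers were low, and the 6 of them summed to 14.4 to 17.4 CPM in the knockdown and 16.2 to 17.9 CPM in controls. Of these 4 were tested and none passed, with mean levels of 0.946 to 7.39 FPKM and log2 fold changes of -0.68 to 0.30. The 2 not tested were Cdh1, with at most 5 counts in a library, and Cldn4, with at most 9. Of the 6 proximal tubule markers 3 were tested, and Aqp1 alone passed, lower in the knockdown. The other 2 tested had log2 fold changes of -0.12 and 0.39 and at most 0.0975 FPKM, against 51.1 FPKM for Aqp1. The list sum (125 to 132 CPM in the knockdown, against 150 to 164 CPM in controls) was thus mostly Aqp1. Hnf4a and Slc22a6 had no count, and none of the 6 markers of the loop, distal tubule and collecting duct could be tested. All 4 fibroblast and pericyte markers were higher in the knockdown (summed 366 to 421 CPM, against 308 to 334 CPM in controls), although Dcn did not pass without knockdown replicate 4 or control replicate 2. Cd14 was the 1 tested of 4 leukocyte markers and was lower (list sum 51.8 to 66.4 CPM in the knockdown, against 70.6 to 80.0 CPM in controls). Flt1 was the 1 tested of 4 endothelial markers and was higher (list sum 11.9 to 13.7 CPM in the knockdown, against 7.40 to 9.58 CPM in controls). Ptprc had at most 1 count and Adgre1 none. The 3 untested leukocyte markers had at most 5 counts in a library, so that list sum was mostly Cd14. The 3 untested endothelial markers had at most 6, so that list sum was mostly Flt1. In bulk RNA fewer cells of a type and less RNA per cell cannot be told apart, and the part of these markers in the results was not tested.

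The promoters of Cul9 and Dcaf7 are shown because these are the rising and the falling member with the smallest adjusted p among those with 1 listed start site, no annotated exon in the window and a window wholly outside the annotated gene, a choice made after their values were seen. Each sequence is the 250 bases before the start site, from RefSeq on GRCm38.p6, in lower case with the motifs searched for in capitals. Cul9 is at chr17:46546389-46546638 on the minus strand, and Dcaf7 is at chr11:106036622-106036871 on the plus strand.
Cul9: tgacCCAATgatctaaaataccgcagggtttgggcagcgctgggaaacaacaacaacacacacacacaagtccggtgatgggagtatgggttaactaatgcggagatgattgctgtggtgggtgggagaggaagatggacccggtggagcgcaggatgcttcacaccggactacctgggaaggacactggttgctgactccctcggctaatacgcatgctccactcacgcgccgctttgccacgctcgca
Dcaf7: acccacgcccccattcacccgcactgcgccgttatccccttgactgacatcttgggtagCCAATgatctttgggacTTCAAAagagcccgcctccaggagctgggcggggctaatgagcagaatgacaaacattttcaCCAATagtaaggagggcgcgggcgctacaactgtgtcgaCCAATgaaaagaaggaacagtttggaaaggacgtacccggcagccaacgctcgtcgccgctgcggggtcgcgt

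The capitals mark CCAAT, the box bound by NF-Y, and TTTGAA, the core of the CHR element of cell cycle promoters, here on the opposite strand as TTCAAA. The Dcaf7 window held CCAAT at 191, 112 and 73 bases before the start site, and the Cul9 window held it once, at 246 bases. Dcaf6 also had 1 CCAAT, 224 bases before its start, in a window that overlaps annotated exons of Dcaf6 and of the neighbouring gene Mpc2 and is not printed. Of the 76 tested members with a listed promoter, 25 held CCAAT on either strand (32.9%), against 41.2% of 9289 tested genes with a promoter. It was present in 3 of the 4 members that were higher in the knockdown and in 5 of the 14 lower ones with a promoter. TTTGAA was found in 15.8% of the members and 12.8% of all genes. The E2F-like TTTNNCGC was found in 9.21% of the members and 8.66% of all genes. TGATGNAA, part of an ATF4-type element, was found in 1.32% of the members and 2.4% of all genes. These matches describe letters in a window and not bound sites.

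Members were more often lower than higher in the knockdown. Of the 92 tested, 17 fell and 4 rose (edgeR quasi-likelihood test, Benjamini-Hochberg adjusted p below 0.05 over all tested genes). Over all 11576 genes 9.15% fell and 11.1% rose, against 18.5% and 4.35% of the members, and 20.2% of all genes were called in either direction, against 22.8% of the members. Log2 fold changes are knockdown minus control. Their median was -0.11 over the tested members and 0.00 (-0.0033) over all genes. Most changes were small, with a median absolute log2 fold change of 0.27 among the 21 called members and none reaching 2-fold. Small changes were general, since the 2344 called genes of the whole table had a median of 0.24 and 27 reached 2-fold. The members' summed level was 2908 to 2966 CPM in knockdown libraries and 3094 to 3123 CPM in controls, so these sums did not overlap. By family, the knockdown sums of Dcaf, Fbxo and Klhl lay below those of controls, while the sums of Cul, Fbxl and Fbxw overlapped.

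**Figure D1:**
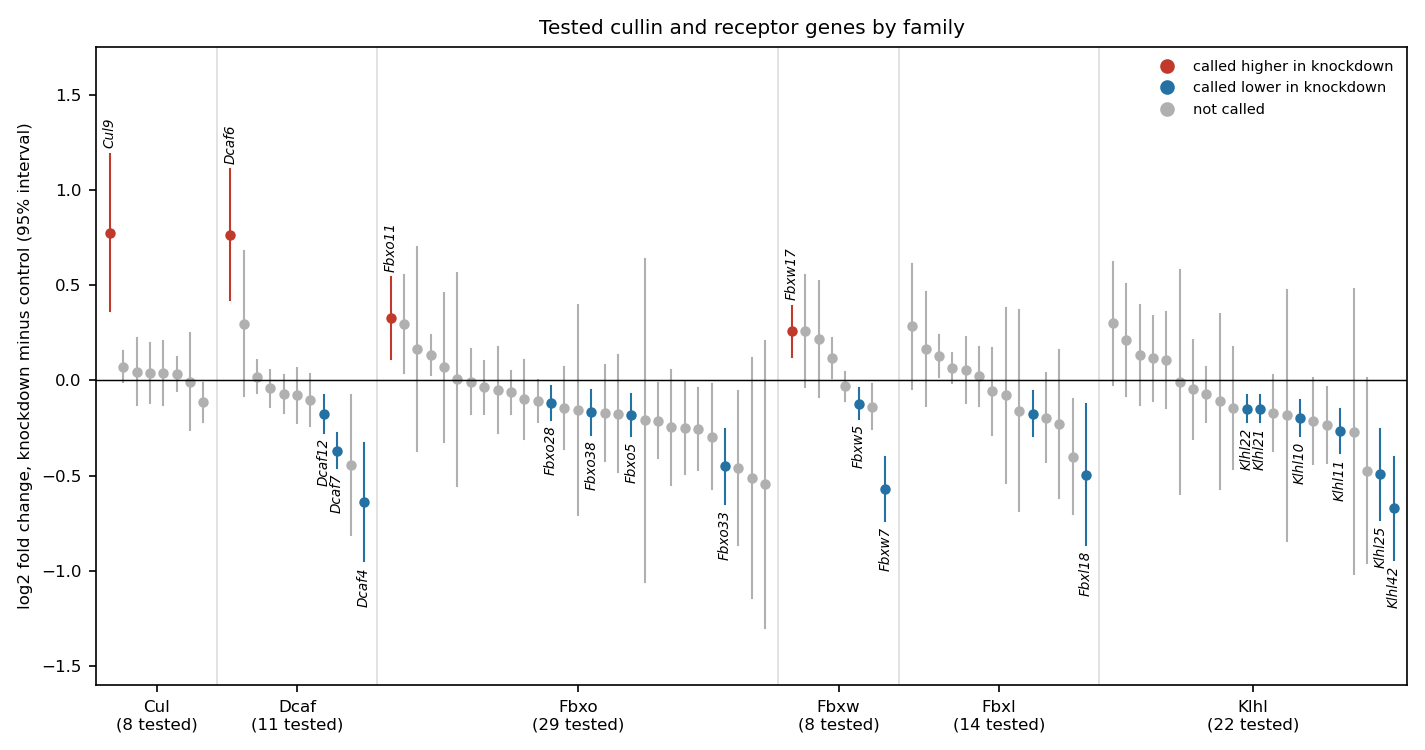
Log2 fold change (knockdown minus control, vertical axis) of the 92 tested members, one point per gene with its 95% interval, ordered within each family. Red points are the 4 members called higher and blue points the 17 called lower; the rises of Cul9 and Dcaf6 stand at 0.77 while most called falls lie above -0.50.

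Calls were more frequent among abundant genes. Among the 34 members with a mean of at least 20 CPM, 12 fell and 1 rose, where 12.7% of all genes at that level fell and 17.9% rose. Among the 58 members below 20 CPM, 5 fell and 3 rose, where 5.74% of all genes fell and 4.51% rose. The median standard error of the log2 fold change was 0.0531 in the first set of members and 0.149 in the second. In 20 members the groups did not overlap, 16 with every knockdown library lower and 4 with every knockdown library higher, against 21.1% of all genes in either direction (9.61% lower and 11.5% higher).

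The cullin scaffolds themselves kept their order of abundance. By the authors' FPKM, which is scaled for transcript length, Cul4a averaged 29.5 ± 1.49 in the knockdown and 30.0 ± 1.26 in controls (SD, n = 4 each, as for the values that follow). Cul7, the scaffold that works with FBXW8, averaged 20.5 ± 0.569 FPKM in the knockdown and 20.3 ± 0.524 FPKM in controls. Cul4b averaged 11.0 ± 0.259 FPKM in the knockdown and 12.3 ± 0.293 FPKM in controls. Below them came Cul1, the scaffold of F-box ligases, at 5.92 ± 0.413 FPKM in the knockdown and 5.83 ± 0.590 FPKM in controls, and Cul3, the scaffold of BTB ligases, at 5.46 ± 0.328 FPKM in the knockdown and 5.52 ± 0.639 FPKM in controls. The levels of Cul1 and Cul3 overlapped. Cul5 averaged 3.30 ± 0.154 FPKM in the knockdown and 3.685 ± 0.422 FPKM in controls, and Cul2 averaged 2.835 ± 0.476 FPKM in the knockdown and 2.99 ± 0.317 FPKM in controls. These scaffolds of elongin-dependent ligases also overlapped with each other. Cul9 was the least abundant, at 0.5225 ± 0.114 FPKM in the knockdown and 0.3125 ± 0.0699 FPKM in controls.

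**Figure D2:**
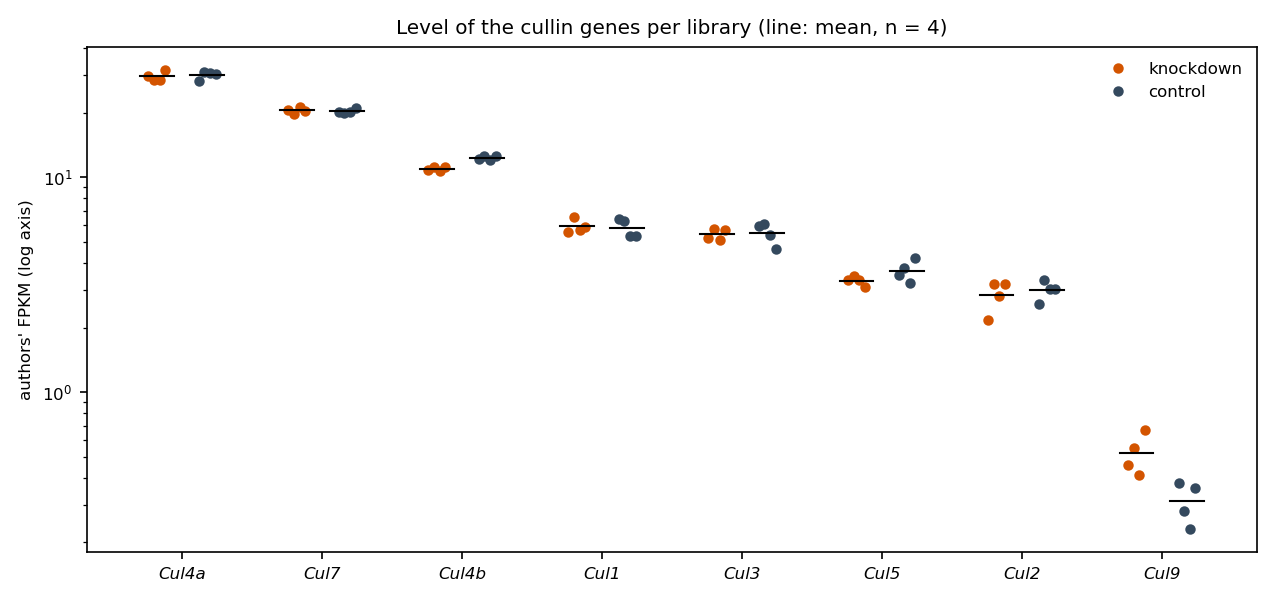
Authors' FPKM of the 8 cullin genes in each library on a log axis, knockdown in orange to the left of control in blue, with a line at the mean of 4 libraries. Levels run from about 30.0 for Cul4a to under 1 for Cul9, and only Cul4b and Cul9 show separate groups.

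Cul9 was the 1 cullin that passed the test, and it rose. Cul9 encodes a large cytoplasmic cullin that binds p53 (ncbi_78309, chromosome 17, 46500609 to 46546388). It had 51, 57, 41 and 68 counts in knockdown replicates 1 to 4, against 49, 35, 26 and 34 in control replicates 1 to 4. Scaled for depth these were 3.64, 4.48, 3.28 and 5.43 CPM in the knockdown and 3.01, 2.11, 1.81 and 2.91 CPM in controls. All knockdown libraries lay above all controls, the nearest pair being 3.28 and 3.01 CPM. The log2 fold change was 0.77 (SE of 0.20 and edgeR adjusted p = 0.00489), which is 171% of control with a 95% interval of 128% to 228%. On log2(FPKM + 0.5) the estimate was 0.33 and did not pass, and on log2(FPKM + 0.1) Cul9 did not pass either. The added 0.5 is of the size of the gene's own mean FPKM (0.5225 in the knockdown and 0.3125 in controls), which makes that estimate smaller.

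Cul4b, a scaffold of the DDB1-DCAF ligases encoded on chromosome X, had separate groups but did not pass. It stood at 54.9, 56.6, 54.6 and 57.5 CPM in the knockdown and at 59.9, 60.7, 59.3 and 62.5 CPM in controls (log2 fold change -0.12 with SE 0.05, edgeR adjusted p = 0.102). It passed when counts were scaled by library total alone (-0.17) and on log2(FPKM + 0.5) (-0.16). Its paralogue Cul4a was 109 ± 6.14 CPM in the knockdown and 107 ± 4.37 CPM in controls, with a 95% interval of the log2 fold change from -0.06 to 0.12. For Cul7 the interval ran from -0.01 to 0.15. For Cul1 (0.05, SE 0.09), Cul2 (-0.01, SE 0.13), Cul3 (0.04, SE 0.08) and Cul5 (0.04, SE 0.08) neither direction was established, and the sign of Cul1, Cul3, Cul4a and Cul5 turned negative under library-total scaling.

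The Dcaf receptors of CUL4 ligases held both a rise and a fall among the members with the smallest p-values. Of the 11 tested, 3 fell and 1 rose (36.4% called, against 20.2% of all genes). Dcaf6 encodes a WD40 protein, also called nuclear receptor interaction protein, that binds steroid receptors (ncbi_74106, chromosome 1, 165329500 to 165460906). It had 87, 84, 62 and 99 counts in knockdown replicates 1 to 4, against 56, 46, 63 and 55 in control replicates 1 to 4. This corresponds to 6.21, 6.60, 4.97 and 7.91 CPM in the knockdown and 3.45, 2.77, 4.40 and 4.71 CPM in controls. The groups did not overlap, but knockdown replicate 3 was close to the highest control. The log2 difference of 0.77 (SE 0.17, edgeR adjusted p = 0.000787) is 170% of control, with a 95% interval of 134% to 216%. The authors' FPKM averaged 1.97 ± 0.428 in the knockdown and 1.21 ± 0.255 in controls (SD, n = 4 each). Its call held in all 20 alternatives, with estimates of 0.53 to 0.87.

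Dcaf7 had the smallest adjusted p of all members and fell. It encodes WDR68, a WD40 scaffold of DYRK and HIPK kinases (ncbi_71833, chromosome 11, 106036872 to 106059324). Its level was 108, 113, 111 and 96.1 CPM in the knockdown and 138, 147, 135 and 133 CPM in controls. Every knockdown library was below every control. The log2 fold change was -0.37 (SE of 0.04 and edgeR adjusted p = 5.41e-08), or 77.4% of control with a 95% interval of 72.7% to 82.4%. The gene overlaps the non-coding Taco1os over 6637 bases, and reads of overlapping genes cannot be told apart since no source used here gives the strand setting of the counting.

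Dcaf4 fell further, to 64.2% of control (interval 51.7% to 79.7%). It had 6.64, 11.5, 8.17 and 8.79 CPM in the knockdown and 12.8, 16.8, 14.0 and 10.4 CPM in controls, so knockdown replicate 2 lay above control replicate 4 (log2 fold change -0.64 with SE 0.15, edgeR adjusted p = 0.00382). Dcaf12, a receptor for proteins that end in glutamates, fell to 88.6% of control (log2 fold change -0.18 with SE 0.05, edgeR adjusted p = 0.00824). Dcaf12 was between 60.8 and 69.4 CPM in the knockdown and between 72.2 and 73.6 CPM in controls. The most abundant Dcaf genes were Dcaf13, a ribosome biogenesis factor, and Dcaf15, the receptor redirected by aryl sulfonamide drugs. They had log2 fold changes of 0.02 (SE 0.04) and -0.04 (SE 0.05) and did not pass.

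**Figure D3:**
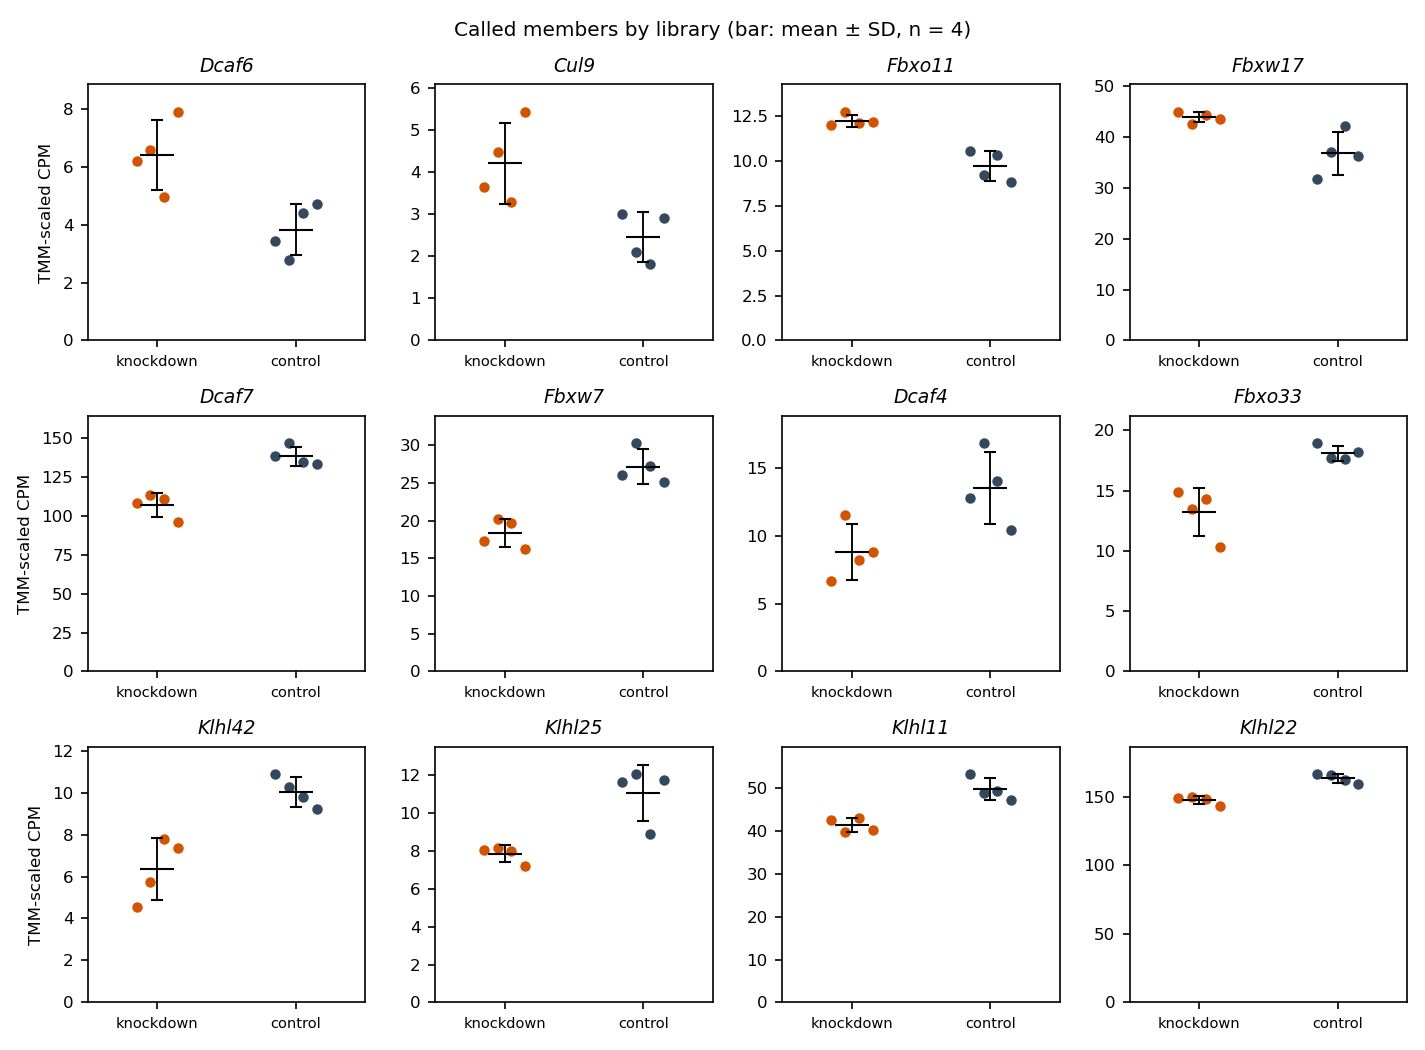
TMM-scaled CPM of 12 called members in each library, knockdown in orange to the left of control in blue, with bars at the mean ± SD (n = 4). The top row holds the 4 members that were higher in the knockdown and the lower rows 8 that were lower; of these 12, Dcaf4 alone has groups that overlap.

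Among the F-box receptors of CUL1, 8 of 51 tested genes fell and 2 rose (19.6% called, against 20.2% of all genes). The Fbxw set, whose WD40 repeats often read phosphorylated substrates, had 2 falls and 1 rise among 8 tested genes (37.5% called). Fbxw7, the receptor for cyclin E, MYC, JUN and NOTCH, had 17.3, 20.3, 19.7 and 16.3 CPM in the knockdown and 26.0, 30.3, 27.3 and 25.2 CPM in controls (ncbi_50754, chromosome 3, 84814990 to 84979198). The highest knockdown library was thus well below the lowest control. The log2 fold change was -0.57 (SE of 0.08 and edgeR adjusted p = 1.51e-06), or 67.4% of control with a 95% interval of 60.0% to 75.6%. RefSeq lists 3 start sites for this gene, and the gene-level counts do not say which transcript moved. The non-coding Gm40080 overlaps it over 36486 bases and the pseudogene Gm46808 over 519 bases.

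Fbxw5 fell slightly, to 91.9% of control (log2 fold change -0.12 with SE 0.04, edgeR adjusted p = 0.0224). Its levels were 113 to 121 CPM in the knockdown and 122 to 130 CPM in controls, and the call was lost without knockdown replicate 2 or control replicate 1, 2 or 3. Fbxw17 rose, with 44.9, 42.7, 44.4 and 43.6 CPM in the knockdown against 31.7, 37.1, 42.1 and 36.3 CPM in controls (log2 fold change 0.26 with SE 0.07, edgeR adjusted p = 0.00376). The knockdown libraries lay close together just above the highest control, and the call was not kept on FPKM. Fbxw2, the most abundant of the set by FPKM, was 132 ± 1.26 CPM in the knockdown and 135 ± 5.47 CPM in controls and did not pass. A large block of this family was not measurable, since 15 of the 23 Fbxw genes in the table were not tested and 10 of these had no count at all.

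The Fbxo set had 4 falls and 1 rise among 29 tested genes (17.2% called, against 20.2% of all genes). Fbxo33 had 14.8, 13.4, 14.3 and 10.3 CPM in the knockdown and 19.0, 17.7, 17.6 and 18.2 CPM in controls (log2 fold change -0.45 with SE 0.10, edgeR adjusted p = 0.000584). Its groups did not overlap, and knockdown replicate 4 was the lowest library. Fbxo5, which encodes EMI1, the inhibitor of the anaphase-promoting complex, was lower at 43.1 to 47.5 CPM in the knockdown, against 49.8 to 53.6 CPM in controls (log2 fold change -0.18 with SE 0.05, edgeR adjusted p = 0.0144). Its count in control replicate 4 alone is not whole (581.99), so reads may be split with near-identical sequence there. The call of Fbxo5 was lost without knockdown replicate 4 or control replicate 1.

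Fbxo28 and Fbxo38 fell by 0.12 and 0.17 on the log2 scale, with edgeR adjusted p of 0.0471 and 0.0357. Their calls were among the least stable: that of Fbxo28 was lost by DESeq2, with no low-count filter and without any 1 library other than control replicate 3, and that of Fbxo38 by DESeq2, by limma voom and without knockdown replicate 3 or 4 or control replicate 1, 2 or 4. Fbxo11, a receptor for BCL6, rose. It had 11.99, 12.73, 12.10 and 12.14 CPM in the knockdown and 10.5, 9.23, 10.3 and 8.81 CPM in controls (log2 fold change 0.33 with SE 0.11, edgeR adjusted p = 0.0226), with groups that did not overlap. The call of Fbxo11 was lost without knockdown replicate 2, control replicate 2 or control replicate 4, under library-total scaling and on FPKM. It overlaps Msh6, a far more abundant mismatch repair gene, over 34 bases. Fbxo22, the other of the most abundant Fbxo genes, had a log2 fold change of -0.06 (SE 0.06) and did not pass.

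Of 14 tested Fbxl genes 2 fell (14.3% called, against 20.2% of all genes). Fbxl18 was 2.36 to 4.33 CPM in the knockdown and 4.11 to 5.25 CPM in controls (log2 fold change -0.49 with SE 0.18, edgeR adjusted p = 0.0492). Its groups overlapped, and the call was lost by DESeq2, by limma voom and without knockdown replicate 2 or 4 or control replicate 1, 2 or 3. Fbxl6 was the most abundant member of all, at 160 ± 9.38 FPKM in the knockdown and 159 ± 5.72 FPKM in controls, and its log2 fold change of 0.06 (SE 0.04) did not pass. Fbxl12 came next in the set and did not pass either (0.13, SE 0.06, edgeR adjusted p = 0.1004), though it did without knockdown replicate 2.

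The Klhl receptors of CUL3 had 6 falls and no rise among 22 tested genes by edgeR, with the same 6 and 0 by DESeq2 and by limma voom. By edgeR 27.3% of the set was called, all lower, against 20.2% of all genes called and 9.15% lower. Only 5 of the 22 had a positive estimate, and none of these had an unadjusted p below 0.05. The number of falls was 6 in each of the 8 fits that left out 1 library, and each of the 6 genes kept its call in all 20 alternatives. Among the 16 that did not pass, 1 had an unadjusted p below 0.05, Klhl12 (-0.23, edgeR adjusted p = 0.0919), named after its values were seen. Of all genes that did not pass, 1356 of 9232 had an unadjusted p below 0.05. The sums over all 37 Klhl genes were 583 to 617 CPM in the knockdown and 656 to 687 CPM in controls. Called genes weigh most in these sums, since Klhl21 averaged 193 CPM in the knockdown and 214 CPM in controls, and Klhl22 147 and 163 CPM.

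Klhl42, an adaptor that in human cells targets the microtubule-severing protein katanin, fell the furthest. It had 4.57, 5.73, 7.77 and 7.35 CPM in the knockdown and 10.9, 10.3, 9.77 and 9.24 CPM in controls. No library of one group reached the other, and the log2 fold change was -0.67 (SE 0.13, edgeR adjusted p = 0.000222), or 62.8% of control with a 95% interval of 52.0% to 75.8%. Klhl25, an adaptor for the translation repressor 4E-BP1 in human cells, had 8.06, 8.17, 8.01 and 7.19 CPM in the knockdown and 11.6, 12.1, 8.87 and 11.7 CPM in controls. Control replicate 3 of Klhl25 lay much nearer to the knockdown than the other controls did. Its log2 fold change was -0.49 (SE 0.12, edgeR adjusted p = 0.00183), or 71.0% of control.

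The most abundant Klhl genes were both mitotic regulators and both fell slightly. Klhl22, which in human cells removes PLK1 from kinetochores, had 149, 150, 148 and 143 CPM in the knockdown and 166, 165, 162 and 159 CPM in controls (log2 fold change -0.15 with SE 0.04, edgeR adjusted p = 0.00212). Klhl21, which in human cells targets Aurora B during cytokinesis, had 200, 184, 202 and 186 CPM in the knockdown and 211, 221, 212 and 211 CPM in controls (log2 fold change -0.15 with SE 0.04, edgeR adjusted p = 0.00184). In both genes all knockdown libraries lay below all controls, and both levels were 90.2% of control.

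Klhl10 and Klhl11 are neighbours on chromosome 11 and fell together. Klhl11 (100457122 to 100472782) had 42.7, 39.8, 43.0 and 40.2 CPM in the knockdown and 53.3, 49.0, 49.4 and 47.2 CPM in controls (log2 fold change -0.27 with SE 0.06, edgeR adjusted p = 0.000592). Klhl10 (100441128 to 100457027), known as a spermatid gene, was 74.1 to 84.0 CPM in the knockdown and 88.7 to 96.4 CPM in controls (log2 fold change -0.20 with SE 0.05, edgeR adjusted p = 0.00156). Klhl10 overlaps the nucleotidase gene Nt5c3b over 681 bases, and Nt5c3b averaged 1436 counts per library against 1189 for Klhl10. How many Klhl10 counts belong to its neighbour cannot be told from gene-level counts.

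The shared parts of the ligases and their NEDD8 cycle had 5 calls among 33 tested genes (15.2%, against 20.2% of all genes). Of 12 genes for adaptors, RING subunits and exchange factors 2 rose and 2 fell. Ddb1, the CUL4 adaptor, was 1024 ± 19.3 CPM in the knockdown and 963 ± 4.54 CPM in controls (log2 fold change 0.09 with SE 0.03, edgeR adjusted p = 0.0121), a call that was lost under library-total scaling and on FPKM. Tceb1, which encodes elongin C, rose by 0.19 (SE 0.04, edgeR adjusted p = 0.00092). Dda1, a small partner of DDB1, fell by 0.12 on the log2 scale (SE 0.03, edgeR adjusted p = 0.0113), a call lost without knockdown replicate 2. The RING gene Rbx1 fell by 0.09 on the log2 scale (SE 0.03, edgeR adjusted p = 0.0379), and it has counts that are not whole.

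Of 12 genes of NEDD8 conjugation 1 fell, Senp8, which encodes the protease that matures NEDD8 and removes it from proteins other than cullins. Senp8 was 3.34 ± 0.676 CPM in the knockdown and 5.25 ± 0.779 CPM in controls (SD, n = 4 per group; log2 fold change -0.65 with SE 0.18, edgeR adjusted p = 0.00591). Among the 9 tested genes of the COP9 signalosome none passed by edgeR, and their log2 fold changes lay between -0.05 and 0.06; at an unadjusted p below 0.05 there was 1, Cops8 (0.06).

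Of 67 tested receptors listed under other symbols, 9 fell and 6 rose (22.4% called, against 20.2% of all genes). They had 45 negative and 22 positive estimates and a median log2 fold change of -0.07. The BTB receptors of CUL3 held 4 rises and 4 falls among 21 (38.1% called). Enc1, a Kelch protein of neural and epithelial cells, fell to 285 ± 8.69 CPM in the knockdown, against 355 ± 7.89 CPM in controls (SD, n = 4 per group; log2 fold change -0.32 with SE 0.03, edgeR adjusted p = 3.85e-10). Kbtbd4, an adaptor for histone deacetylase complexes in human cells, fell by 0.37 on the log2 scale (SE 0.06, edgeR adjusted p = 1.41e-05). Ivns1abp, a Kelch protein first found through influenza NS1, rose by 0.25 (SE 0.03, edgeR adjusted p = 4.28e-08).

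The elongin-dependent receptors of CUL2 and CUL5 had 4 falls and 2 rises among 30 (20% called, against 20.2% of all genes). Cish, an inhibitor of cytokine receptor signalling, was 16.3 ± 1.01 CPM in the knockdown and 20.6 ± 0.238 CPM in controls (log2 fold change -0.34 with SE 0.08, edgeR adjusted p = 0.00239). Socs3, of the same inhibitor family, fell by 0.13 on the log2 scale (SE 0.04, edgeR adjusted p = 0.0251), a call lost without knockdown replicate 1 or 4 or control replicate 1. Asb13 rose by 0.35 (SE 0.08, edgeR adjusted p = 0.0019). Of 5 F-box receptors under other symbols 1 fell (20% called), the mitotic Ccnf (-0.29, SE 0.10, edgeR adjusted p = 0.0405). The groups of Ccnf overlapped, and its call was lost by DESeq2 and without knockdown replicate 1, 3 or 4 or control replicate 1, 2 or 3. Of 11 CUL4 receptors under other symbols none passed by edgeR, with estimates from -0.21 to 0.34, and 2 had an unadjusted p below 0.05, Wdtc1 (0.23) and Brwd1 (0.21).

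The share of members called was compared with that of all tested genes under each way of processing the counts. Members called lower ranged from 11 to 25 of those tested and members called higher from 1 to 5, over 20 alternatives. In each of the 20 alternatives a larger share of members than of all genes was lower, and a smaller share was higher.

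**Figure D4:**
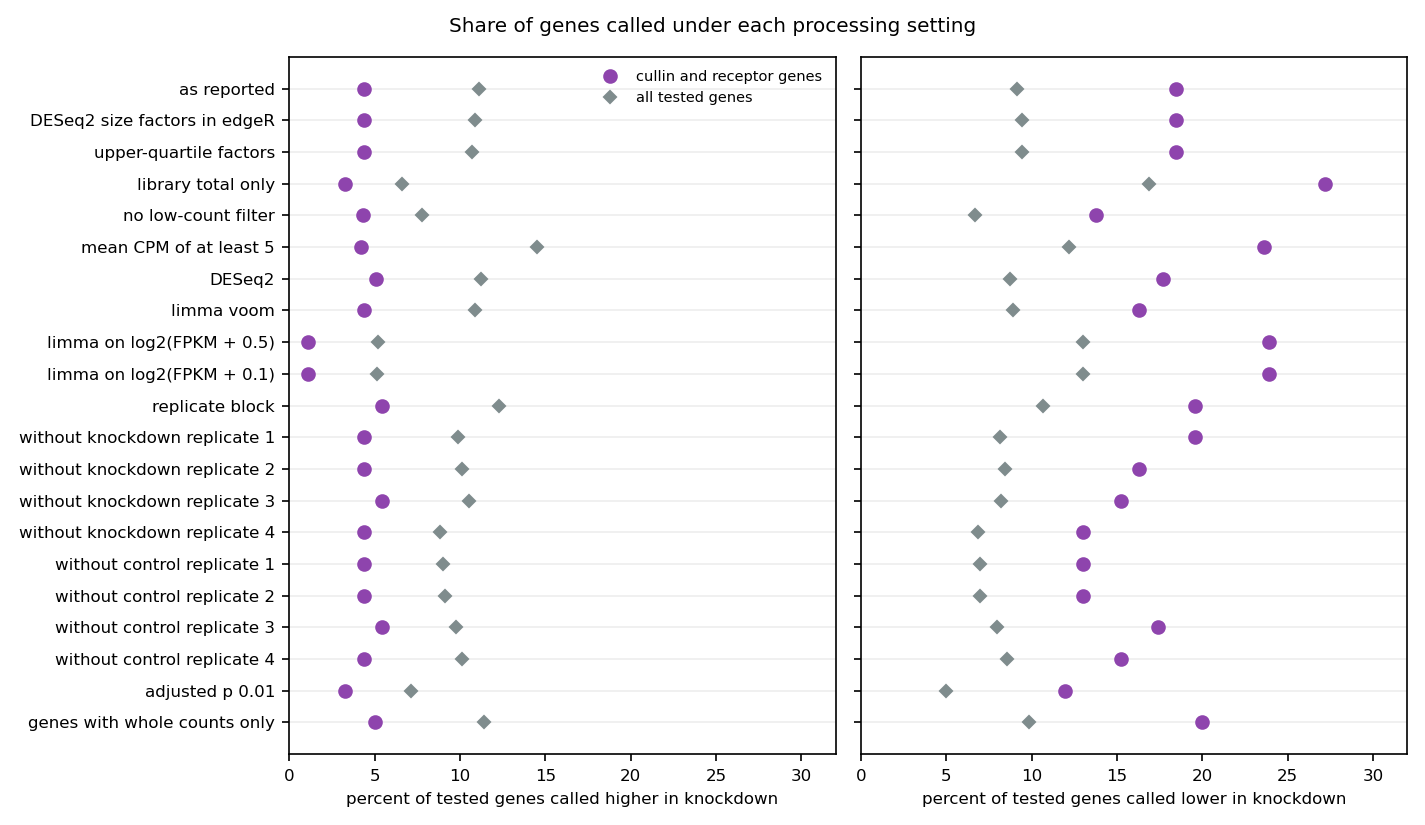
Percent of tested genes called higher (left panel) and lower (right panel) in the knockdown under each processing setting, for cullin and receptor genes (purple circles) and all tested genes (grey diamonds). As reported, 18.5% of the members and 9.15% of all genes were lower, and the circles lie right of the diamonds in every row of the right panel and left of them in every row of the left panel.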

How the data were processed

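Messenger RNA of 8 libraries was enriched with oligo(dT) beads and sequenced, per the labels' protocols. The authors deposited expected counts for each gene and FPKM values, scaled for transcript length and depth, for the same libraries, per the file headers. The submitters' processing notes name build GRCm38.p6 and, with no role or order, RSEM, edgeR, DESeq2, StringTie 1.3.1, HISAT2 2.4, Bowtie2 2.2.8 and fastp 0.18.0. For the annotation release and the strand setting, the sources used here give nothing. Of the values 6.52% were not whole (tolerance 1e-09), and 12 of the 92 tested members have such counts.

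After rounding the expected counts, edgeR 4.0.16 (R 4.3.3) was run with TMM factors, the filterByExpr filter and a robust quasi-likelihood F-test on group, two-sided. P-values were adjusted by Benjamini-Hochberg over 11576 genes, with a threshold of 0.05. CPM are TMM-scaled, SE is the fold change over the root of F, and intervals cover 95%. A level of 3 counts is 0.214 to 0.240 CPM in the knockdown and 0.181 to 0.257 CPM in controls, for counting error only. Replicates differed by more than sampling noise (chi-square per degree of freedom 1.94 to 3.98). The procedure was tested on simulated data.

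The members and lists were chosen with earlier results of these data known. Genes named are Rap1gds1, Dcaf6, every cullin, up to 6 called members with the smallest adjusted p and the 2 of highest FPKM in each receptor family, and up to 3 called genes of each companion list (adaptors, NEDD8, COP9 signalosome, other receptors, substrates, cell type markers). Other genes named were chosen after their values were seen. Of the 15 listed adaptor symbols 12 were in the table, and Cops9 was not matched. Alternatives were other size factors, other filters, DESeq2 1.42.0, limma 3.58.1 with voom or on log2(FPKM + 0.5 or 0.1), a replicate term, each library left out, genes with whole counts only, and a threshold of 0.01. Promoters came from RefSeq for 76 of 92 tested members. The values of 1 called member are not reported here, although it is counted.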

Additional observations from a re-analysis of the deposited data

Results flagged for a closer look

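In 108 groups of 4 libraries of named genes, 9 held a library whose distance from the nearest other exceeded the critical share of 0.829 of the group's range (Dixon's 95% value), where chance gives about 1 in 20. Klhl25 was marked in both conditions, at 7.19 CPM in knockdown replicate 4 (others 8.01 to 8.17) and at 8.87 CPM in control replicate 3 (others 11.6 to 12.1). Klhl21 stood at 221.5 CPM in control replicate 2 (others 211 to 212). Fbxo22 stood at 60.7 CPM in knockdown replicate 1 (others 54.7 to 55.2). Fbxw2 stood at 143 CPM in control replicate 4 (others 131 to 132). Cul4a stood at 100.2 CPM in control replicate 1 (others 109 in each). Among companion and marker genes, Ccnf stood at 14.4 CPM in knockdown replicate 2 (others 10.8 to 11.2), Dcn at 6.79 CPM in knockdown replicate 4 (others 5.78 to 5.85) and Flt1 at 13.3 CPM in knockdown replicate 4 (others 11.5 to 11.8).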

How the results depend on the processing

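All 21 called members kept their sign in each of the 20 alternatives in which they had a value, and 12 kept their call in all of them (Dcaf4, Dcaf6, Dcaf7, Dcaf12, Fbxo33, Fbxw7, Klhl10, Klhl11, Klhl21, Klhl22, Klhl25 and Klhl42). Leaving out 1 library gave 4 to 5 members higher and 12 to 18 lower, with 1033 to 1227 and 802 to 997 of all genes. Scaling by library total alone gave 3 members higher and 25 lower, with 766 and 1951 of all genes and a median log2 fold change of -0.06 over all genes. On log2(FPKM + 0.5) 1 member was higher and 22 lower, with 598 of all genes higher and 1508 lower; with a pseudocount of 0.1 these were 1, 22, 593 and 1505. At an adjusted p of 0.01, 3 members were higher and 11 lower, with 825 and 580 of all genes. The cause of these shifts was not tested. Signs that turned belonged to genes that were not called. Under library-total scaling the estimates were -0.011 for Cul1, -0.018 for Cul3, -0.025 for Cul4a, -0.019 for Cul5 and -0.036 for Dcaf13. On log2(FPKM + 0.5) they were -0.01 for Cul3, -0.026 for Cul4a, -0.13 for Cul5 and -0.037 for Dcaf13, and with a pseudocount of 0.1 they were -0.010, -0.026, -0.15 and -0.038. With 1 library left out, estimates ranged from -0.0073 to 0.096 for Cul1, from -0.076 to 0.11 for Cul2, from -0.016 to 0.077 for Cul3, from -0.0072 to 0.051 for Cul4a and from -0.00042 to 0.048 for Dcaf13.

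The main test took the libraries as unpaired. Deviations from the group means correlated by 0.056, 0.083, -0.036 and 0.056 for equal replicate numbers 1 to 4, and by -0.062 to 0.038 for unequal numbers. Knockdown replicates 1, 2 and 4 correlated best with their own number, and knockdown replicate 3 did not. With a replicate block, 5 members were higher and 18 lower, including all 21 called without it. Of all genes 1425 were then higher and 1235 lower, against 1285 and 1059 without the block. Low counts limit what can be seen, since members below 20 CPM had a median standard error of 0.149.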

Other observations

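Messenger RNA of 20 textbook substrates of cullin ligases was also measured. Of these 6 fell and 2 rose (40% called, against 20.2% of all genes). The substrates were abundant (median 24.1 FPKM, against 6.56 FPKM over all genes). Among all genes of at least 20 CPM 12.7% fell and 17.9% rose, against 30% and 10% of the 20 substrates at any level. Some substrates, such as Cdkn1b and Cdkn1c, lay below 20 CPM, so these shares are not matched for level. Cdkn1a encodes the inhibitor p21, a protein that SKP2 and CUL4 ligases degrade. The Cdkn1a transcript averaged 619 ± 22.9 CPM in the knockdown and 736 ± 16.2 CPM in controls (SD, n = 4 per group). Its log2 fold change was -0.25 (SE 0.03, edgeR adjusted p = 1.61e-08). Myc, whose protein is a substrate of FBXW7, averaged 301 ± 11.1 CPM in the knockdown and 261 ± 9.43 CPM in controls (log2 fold change 0.21 with SE 0.03, edgeR adjusted p = 8.98e-06). Ctnnb1, the substrate of beta-TrCP, rose by 0.15 (SE 0.03, edgeR adjusted p = 0.000263) but was not called on FPKM. Among other transcripts whose proteins FBXW7 recognises, Ccne2 fell by 0.24 on the log2 scale (SE 0.07, edgeR adjusted p = 0.0153), with groups that overlapped and counts that are not all whole. Ccne1, Jun and Mcl1 did not pass: Ccne1 had a log2 fold change of -0.09 (SE 0.06), Jun -0.03 (SE 0.03) and Mcl1 -0.06 (SE 0.04). These are transcript levels, and the proteins were not measured here.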
